A study of Mus musculus with 29 samples.

Results

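The genes of retinoid supply, synthesis and response were followed through 4 comparisons of bulk RNA-seq libraries from the mouse bladder. They are 9 genes chosen by name, Rbp4, Stra6, Crabp2, Rdh10, Rdh11, Aldh1a1, Aldh1a2, Aldh1a3 and Rarg, out of the 35199 genes that each table lists, and all 9 are present in every table. No measured value entered the choice of these names, which were picked with earlier results of the data known.

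Retinol reaches cells on the serum carrier Rbp4 and can enter through the membrane receptor Stra6. Retinol dehydrogenases such as Rdh10 oxidize it to retinaldehyde, the retinaldehyde dehydrogenases of the Aldh1a family make retinoic acid from that, and Crabp2 hands retinoic acid to nuclear receptors such as Rarg, which bind DNA together with an Rxr partner. The urothelium, the stratified lining of the bladder, depends on vitamin A, and its loss is known to turn the lining squamous.

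The first set of libraries came from Gfp-positive basal cells sorted 4 days after tamoxifen, with no carcinogen, from 4 controls and 5 mutants. The labels give the controls as wild type and the mutants as K5VP16;Pparg+/-. In the mutants the tamoxifen-dependent Cre recombinase of the Krt5 promoter, which marks basal cells, switches on VP16;Pparg, the nuclear receptor Pparg joined to a viral activator, from a CAG promoter in the Rosa26 locus. The study's methods give the sorted controls as K5;mTmG, which carry the same Cre and a Gfp reporter, and name VP16;Pparg fl/fl mice as controls elsewhere, so the exact control genotype was not settled here. The second set was cut by laser capture from bladders labelled as exposed for 5 months to 0.05% BBN, a bladder carcinogen, and titled as 4 months, which the study counts from tamoxifen. It holds 3 basal tumors of control mice, 3 luminal tumors of K5VP16;Pparg+/- mice, and 3 luminal domains with 3 basal-like domains of mixed K5VP16;Pparg+/- tumors. Captured regions are not tied to animals in the labels, so some may share an animal and p-values over them may be too small. Carcinogen and tamoxifen are shared by all tumor groups, while tumor type and genotype go together and cannot be told apart.

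Values are normalized counts, the authors' estimated reads per gene divided by a factor for gene and library. Their sums lay between 36520193 and 53904714 per library in the 4 tables that the comparisons rest on, but the reads behind a value are unknown. They are not divided by gene length, so levels are compared between libraries and never between genes. Libraries are numbered within a group in the order of their names in the tables, and the numbers carry no order. Fabp4, a target of Pparg, was above every control in all 5 mutants at 4 days (log2 fold change 4.64, SE 0.49, adjusted p = 0.00171). Pparg itself was lower in every mutant (6111 to 9032 normalized counts) than in every control (9381 to 9999) at 4 days, against the direction that an added transgene would give (-0.36, SE 0.12, adjusted p = 0.126), and whether reads of the transgene are counted as Pparg is not given in the sources used here. It lay at 13.0 to 126 normalized counts in the basal tumors and at 3579 to 8632 in the luminal tumors. Fabp4 overlapped between tumor types, with 48304 in basal tumor 3 and 31727 in luminal tumor 1. Markers of basal urothelium (Krt5, Krt14, Trp63, Col17a1) were above 0 in every library. In the sorted cells they summed to 136042 to 172436 in controls and to 89398 to 128857 in mutants. Markers of superficial urothelium (Upk1a, Upk1b, Upk2, Upk3a, Krt20, Krt18) summed to 192457 to 368276 in controls and to 234544 to 472441 in mutants. The sorted libraries thus held RNA of both marker sets, and the purity of the sort was not tested. Bulk RNA cannot separate fewer cells of a type from less RNA per cell. Over 4 Y-linked genes, the mean of log2(normalized count + 1) was 11.05 to 11.11 in controls 2 to 4, 5.59 in control 1 and 5.16 to 5.91 in the mutants, so that the sex of the sorted mice follows genotype in all but 1 library and can hardly be told apart from it. Each member's difference at 4 days is therefore also given with this Y-linked score in the fit, which rests almost wholly on control 1, the 1 control with a score like that of the mutants, and so gives nearly the same values as control 1 alone against the mutants.

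In the annotation of GRCm38 (GENCODE M21) none of the 9 genes has an exon that overlaps an exon of another gene. Aldh1a1 (chr19:20492715-20643465, plus strand) has a close copy, Aldh1a7 (chr19:20692953-20727562, minus strand), 49487 bases away. Of the 31-base words in the Aldh1a1 transcripts 5.7% also occur in those of Aldh1a7, and of the words of Aldh1a7 13.8% occur in Aldh1a1, so the split of reads between both genes is uncertain and Aldh1a7 is given beside Aldh1a1 throughout. No such sharing was found for Rbp4, Stra6, Crabp2, Rdh10, Aldh1a2 or Rarg, and it came to 0.406% for Rdh11 and 2.26% for Aldh1a3. The other members are Rbp4 (chr19:38116629-38125281), Stra6 (chr9:58063788-58153996), Crabp2 (chr3:87948666-87953376), Rdh10 (chr1:16105774-16133734), Rdh11 (chr12:79174337-79192293), Aldh1a2 (chr9:71215789-71296243), Aldh1a3 (chr7:66390890-66427517) and Rarg (chr15:102234938-102257517). All of them are protein coding.

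The start regions of Aldh1a1 and Aldh1a7 are shown because Aldh1a1 was the member that passed a test in tumors. In the RefSeq promoter windows (GRCm38.p6, 250 bases before to 50 after a start) the last 150 bases of both were 94.7% identical, against 23.3% of the first 150, compared base by base without gaps. Capitals mark the longest run they share, 65 bases at positions 157 to 221 of each window. The windows are chr19:20601718-20602017 on the plus strand, the downstream of the 2 Aldh1a1 starts listed, and chr19:20727507-20727806 on the minus strand.
Aldh1a1: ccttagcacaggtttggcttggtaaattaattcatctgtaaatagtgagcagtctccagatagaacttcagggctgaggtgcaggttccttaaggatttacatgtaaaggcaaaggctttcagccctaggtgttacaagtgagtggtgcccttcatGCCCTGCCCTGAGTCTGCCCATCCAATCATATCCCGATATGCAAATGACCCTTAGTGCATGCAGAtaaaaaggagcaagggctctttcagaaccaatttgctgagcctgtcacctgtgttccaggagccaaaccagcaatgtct
Aldh1a7: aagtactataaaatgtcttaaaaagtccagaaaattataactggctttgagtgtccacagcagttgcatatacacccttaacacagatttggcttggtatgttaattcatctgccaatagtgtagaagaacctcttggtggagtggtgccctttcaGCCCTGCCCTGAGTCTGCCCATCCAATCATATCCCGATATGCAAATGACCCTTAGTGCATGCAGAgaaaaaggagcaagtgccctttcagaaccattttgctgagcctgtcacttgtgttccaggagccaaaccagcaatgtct

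Retinoic acid receptors are known to bind pairs of hexamers, and the textbook case is the promoter of Rarb, a receptor gene that retinoic acid itself turns on. It is shown because its repeat was among the patterns searched for in the members. The Rarb window (chr14:16575427-16575726, minus strand) is printed with the repeat of hexamers 5 bases apart in capitals, at positions 198 to 214.
Rarb: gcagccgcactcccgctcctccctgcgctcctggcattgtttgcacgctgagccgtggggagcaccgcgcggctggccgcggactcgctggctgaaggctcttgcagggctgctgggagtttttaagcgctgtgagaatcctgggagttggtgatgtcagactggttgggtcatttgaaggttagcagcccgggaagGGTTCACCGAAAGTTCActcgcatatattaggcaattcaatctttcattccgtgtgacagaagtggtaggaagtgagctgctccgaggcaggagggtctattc
The repeat was searched on both strands as the hexamer NGNTCA, any 5 bases and NGNTCA again, and 0.861% of the 32851 windows hold it. Promoter windows were given for 6 of the 9 members, Rbp4, Stra6, Rdh11, Aldh1a1, Aldh1a2 and Rarg, and none of these holds the repeat. The single hexamer AGGTCA, in 16.3% of all windows, occurs in Rdh11 and Rarg, and GGGTCA, in 13.7%, occurs in Aldh1a1 and Rbp4. The GGGTCA of Aldh1a1 lies on the minus strand at position 202 of the window, inside the capitals, and Aldh1a7 has it at the same position. A match of letters is a description and not a binding site.

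The comparison of mutants with controls at 4 days asks whether activated Pparg changes the retinoid genes of basal cells within days. Crabp2, Stra6 and Aldh1a2 had the largest differences, all toward higher values in mutants, and 8 of the 9 members were higher on average, but no member passed the test. Of 16413 genes tested 2.85% had an adjusted p under 0.05, and 0 of the 9 members did. At an unadjusted p under 0.05 there were 3 members, Crabp2, Rdh11 and Rarg, and 3418 of the 16413 genes. The median log2 fold change of the members was 0.47, against 0.00 (0.0045) over all genes tested. Between groups the libraries overlapped for all 9 members, where 9.18% of all genes tested had groups that did not (4.67% higher and 4.51% lower in mutants). In the separate table of controls 2 to 4 and mutants 2, 3 and 5, the groups of Rbp4, Crabp2, Rdh11 and Aldh1a3 stood apart. The highest control and lowest mutant were 218 and 276 for Rbp4 and 5.12 and 14.0 for Crabp2. They were 689 and 979 for Rdh11 and 75.7 and 108 for Aldh1a3. None was called there, and sex coincides with genotype in these libraries. The share of all genes standing apart was not counted, so these gaps cannot be read as a result about the members.

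Among the carriers, Crabp2 lay at 12.2, 0, 2.93 and 5.68 normalized counts in the 4 controls and at 108, 36.5, 59.8, 9.64 and 15.6 in the 5 mutants. Only mutant 4 fell below the highest control, and levels were low in all libraries. The log2 fold change was 2.97 (SE 0.86, unadjusted p = 0.00608, adjusted p = 0.0914), a 7.82-fold difference on the log2(normalized count + 1) scale, which understates changes of low genes. With the Y-linked score in the fit it was 1.54 (adjusted p = 0.8), and control 1 alone against the mutants gave 1.35. Stra6, the membrane receptor for carrier-bound retinol, lay at 13.5, 14.7, 34.5 and 51.9 in controls and at 64.6, 31.2, 240.3, 45.6 and 49.6 in mutants. Mutant 3 stood far above the rest, mutant 1 was just above the highest control, and the other 3 mutants lay inside the range of the controls. This gave a log2 fold change of 1.36 (SE 0.62, adjusted p = 0.247), and 2.30 with the Y-linked score (adjusted p = 0.517). Rbp4 lay at 397, 241, 206 and 174 in controls and at 106, 302, 426, 405 and 654 in mutants. Its lowest and its highest value were both in mutants, the log2 fold change was 0.42 (SE 0.48, adjusted p = 0.653), and it turned to -0.40 with the Y-linked score and to -0.29 against control 1 alone.

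Of the 2 members that interconvert retinol and retinaldehyde, Rdh11, which works mainly as a reductase of retinaldehyde, varied less than Rdh10. It lay at 985, 759, 757 and 754 in controls and at 1198, 1069, 1093, 895 and 1309.8 in mutants. Controls 2 to 4 were nearly equal, control 1 stood above them, and only mutant 4 lay below control 1. The difference was 0.45 on the log2 scale (SE 0.14, adjusted p = 0.106), and 0.19 with the Y-linked score (adjusted p = 0.857). Rdh10, the enzyme of the rate-limiting oxidation of retinol, lay at 2586, 2192, 1389.8 and 1506 in controls and at 1492, 2289, 3603, 4550.2 and 1974 in mutants. Mutants 3 and 4 were above all controls while the other 3 fell among them. Its log2 fold change was 0.47 (SE 0.33, adjusted p = 0.456) and it turned to -0.09 with the Y-linked score. Over all 12 other settings it ran from -0.09 to 0.69, and with each library left out from 0.26 to 0.66.

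The retinaldehyde dehydrogenases gave small or very uneven differences. Aldh1a1 lay at 1750.3, 3313, 2837 and 3593 in controls and at 3849.99, 2987, 4993, 3171 and 2315 in mutants, with the groups running through each other (log2 fold change 0.27, SE 0.25, adjusted p = 0.579). With the Y-linked score it was 0.97 (adjusted p = 0.389). Aldh1a7, its copy, lay at 3542, 2826, 1975 and 2745 in controls and at 5047, 5394, 3775, 2932 and 4585 in mutants. All mutants but mutant 4 exceeded the highest control (0.65, SE 0.21, adjusted p = 0.117, and 0.27 with the Y-linked score, adjusted p = 0.866). Aldh1a3, known from epithelia, lay at 83.0, 65.8, 64.8 and 77.9 in controls and at 87.9, 111, 157, 62.3 and 118 in mutants (0.49, SE 0.29, adjusted p = 0.364). The lowest value of all was that of mutant 4, and the difference with the Y-linked score was 0.32 (adjusted p = 0.908).

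Aldh1a2, the retinaldehyde dehydrogenase known from mesothelium and stroma, spread widest of the enzymes. It lay at 107, 611, 584 and 1831 in controls and at 1209.9, 328, 2702, 3296 and 920.5 in mutants, and both groups covered most of the same range (1.30, SE 0.84, adjusted p = 0.418). With the Y-linked score the difference was 3.65 (adjusted p = 0.336) and against control 1 alone, the lowest library, it was 3.56, while over all 12 other settings it ran from 0.11 to 3.65. Mesothelial markers (Msln, Wt1, Lrrn4) summed to 1195, 4455, 7977 and 21842 normalized counts in the same 4 controls and to 15046, 5417, 27826, 29706 and 8235 in the same 5 mutants. Fibroblast markers (Col1a1, Col1a2, Col3a1, Dcn, Lum, Pdgfra) summed to 11651, 25063, 42200.5 and 84707 in controls and to 84293, 30652, 217371, 129146 and 66749.5 in mutants. The lowest Aldh1a2 value and the lowest sums were all in control 1, and mutants 3 and 4 had the highest of all 3. None of the 9 markers was at 0 in any of these libraries, and the part of such cells in the Aldh1a2 values was not tested.

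**Figure D1:**
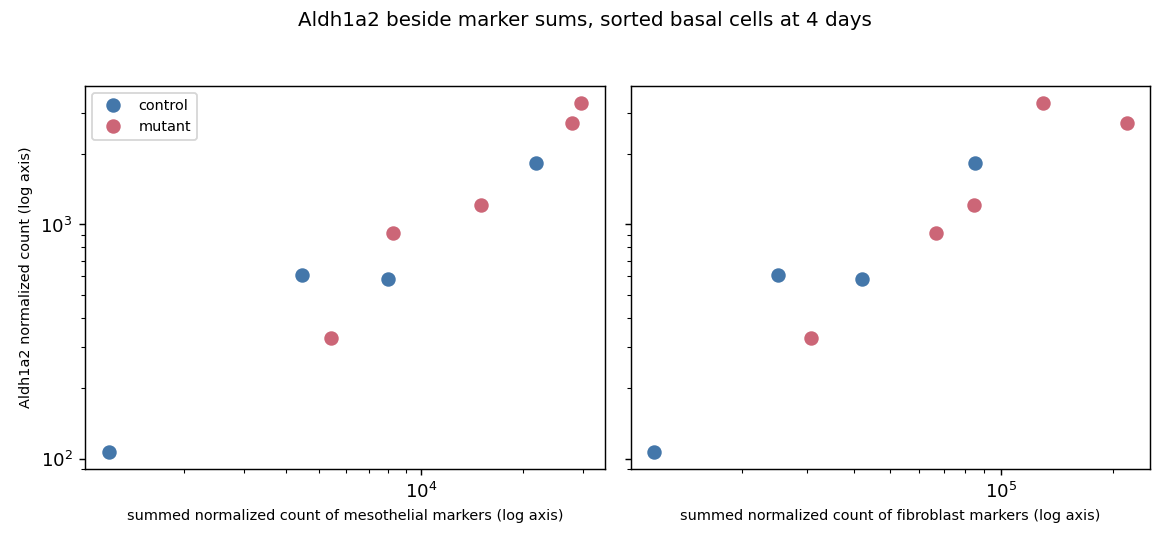
Normalized count of Aldh1a2 in the 9 sorted libraries (vertical, log axis) against the summed normalized count of 3 mesothelial markers (left) and 6 fibroblast markers (right), both on log axes, with 1 point per library, controls in blue and mutants in red. Control 1, at 107 for Aldh1a2, is the lowest point in both panels and mutants 3 and 4, at 2702 and 3296, are the highest.

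Rarg, the receptor of the group, was the only member with a negative difference. It lay at 2892.5, 2409, 2747 and 2677 in controls and at 2033, 2569.9, 1814, 1940.01 and 2258 in mutants. Mutant 2 lay among the controls and the other 4 mutants lay below all of them. The log2 fold change was -0.34 (SE 0.11, unadjusted p = 0.0129, adjusted p = 0.128), and -0.48 with the Y-linked score (adjusted p = 0.479). Rarg and Rdh11 were also the members with the narrowest range over the 9 libraries, 0.67 and 0.80 on the log2 scale against a median of 1.02 over all genes tested, while Crabp2 spanned 6.76 and Aldh1a2 4.94.

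**Figure D2:**
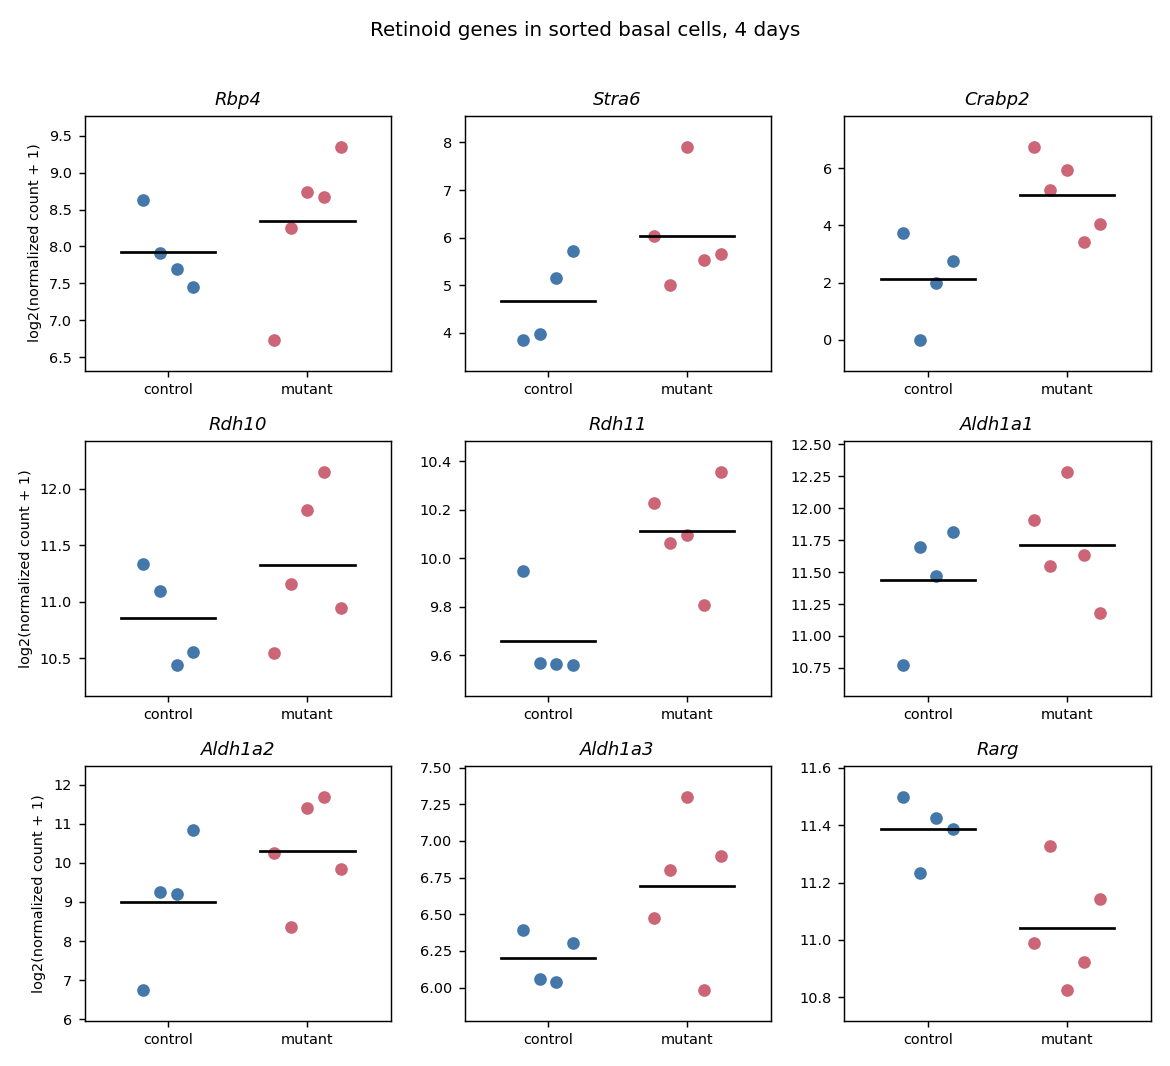
Values of the 9 members in sorted basal cells, with log2(normalized count + 1) on each vertical axis, 1 point per library, and a black line at the group mean. Points of the 4 controls (blue) and 5 mutants (red) overlap in every panel, and Crabp2, Stra6 and Aldh1a2 spread widest.

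The rest of the pathway was read from a list of 38 further genes of retinoid transport, conversion, degradation, reception and response, of which 29 were tested at 4 days. Of these 29, 3 were called higher and 1 lower in mutants, where 1.77% and 1.08% of all genes tested were called in those directions. Ttr, the serum partner of Rbp4, rose from 26.5, 67.7, 32.2 and 32.6 in controls to 202, 228, 544, 398 and 297 in mutants (log2 fold change 3.04, SE 0.37, adjusted p = 0.0037). Every mutant exceeded every control. Of the liver genes checked beside Ttr, Alb was at 0 in 8 of the 9 libraries and at 1.79 in mutant 1, and Serpina1a was at 0 in all of them. Apoa1 lay at 23.6, 0, 0.964 and 1.90 in controls and at 4.26, 8.93, 21.5, 27.1 and 44.1 in mutants, higher on average like Ttr and with control 1 among the mutants (2.32, SE 0.94, adjusted p = 0.198). The part of such RNA in the Ttr values was not tested.

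Rdh12, a reductase of retinaldehyde, rose from 517, 424, 367 and 566 in controls to 1465, 1023, 1142, 1043 and 1418 in mutants (log2 fold change 1.38, SE 0.17, adjusted p = 0.00407). Adh7, an alcohol dehydrogenase that oxidizes retinol, fell from 10183, 7029, 5353 and 9093 to 3971, 3853, 2184, 2153 and 3577 (-1.34, SE 0.25, adjusted p = 0.0242). Both pairs of groups stood apart without overlap. Among the markers, Krt20 of superficial cells (1.83, adjusted p = 0.0444) and Lum of fibroblasts (2.70, adjusted p = 0.0303) were also called higher and Col17a1 of the 4 basal markers lower (-1.34, adjusted p = 0.0315). The other basal markers were not called, with Krt5 at -0.30, Trp63 at -0.75 and Krt14 at 1.89. Nor were the other superficial markers, with Upk1a at 0.18, Upk1b at 0.63, Upk2 at 0.65, Upk3a at 0.03 and Krt18 at 0.40. The other fibroblast markers ran from 1.21 for Dcn to 2.06 for Pdgfra and were not called. Smooth muscle markers (Acta2, Myh11, Cnn1, Des, Actg2) were not called either. Their mean of log2(normalized count + 1) was 4.06 to 5.29 in controls and 5.48 to 7.18 in mutants, without overlap. Their sums overlapped, at 89.2 to 876 and 293 to 2213. What the marked cells contribute to the pathway calls was not tested. The calls of Ttr, Rdh12 and Adh7 were lost with the Y-linked score in the fit (adjusted p = 0.109, 0.218 and 0.219), although each log2 fold change kept its sign, at 3.49, 1.26 and -1.73. Over all genes this fit called 25. In the table of 3 controls against 3 mutants Adh7 was not called (0.11). Its call was also lost without control 1 (0.0557), control 2 (0.0703), control 4 (0.071) or mutant 3 (0.0522).

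Of the 5 other receptor genes, Rara, Rarb, Rxra, Rxrb and Rxrg, 0 were called and 4 were lower on average in mutants. Rarb, printed above, lay at 725, 1003, 1279.5 and 1019 in controls and at 569, 639, 559, 371 and 599 in mutants. The groups did not overlap and the gene missed the threshold narrowly (-0.87, SE 0.20, adjusted p = 0.0505). It was called under 5 of the 12 other settings and not with the Y-linked score (-0.41, adjusted p = 0.735). Rarb was singled out after its values were seen.

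The comparison of 3 luminal with 3 basal tumors asks which retinoid genes differ between tumor types. Aldh1a1 stood higher and Aldh1a2 lower in luminal tumors on average, but libraries of a group differed among themselves by as much or more. With both luminal domains of this table in the fit to estimate the spread, 2.2% of 15357 genes tested were called, and 0 of the 9 members. At an unadjusted p under 0.05 there was 1 member, Aldh1a1, and 2820 of the 15357 genes. The members' median log2 fold change was -0.31, against -0.11 over all genes tested. Groups did not overlap for 21.5% of all genes tested (9.98% higher in luminal tumors), and for 1 of the 9 members, Rarg, which was higher.

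Aldh1a1 lay at 147, 2547 and 791 normalized counts in the basal tumors and at 9588, 1350.4 and 32283 in the luminal tumors. Luminal tumors 1 and 3 were above all basal tumors and luminal tumor 2 was below basal tumor 2. On the log2 scale the difference was 3.48 (SE 1.20, unadjusted p = 0.0165, adjusted p = 0.171), an 11.2-fold difference. With each library left out it ran from 2.40, without basal tumor 1, to 4.72, without luminal tumor 2, and it was 2.43 without luminal tumor 3 and 4.45 without basal tumor 2. Aldh1a7 lay at 11.05, 215 and 2394 in basal tumors and at 5431, 7107 and 5179 in luminal tumors, with no overlap (4.99, SE 1.53, adjusted p = 0.131). It was called without basal tumor 3, which holds 2394 (6.84, adjusted p = 0.0468), and not without any other library.

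Aldh1a2 lay at 829, 24.1 and 336 in basal tumors and at 3.46, 0 and 174 in luminal tumors. Luminal tumors 1 and 2 were close to 0 and luminal tumor 3 fell between the basal tumors. Group means were 396 and 59.3, and the log2 fold change, which leans on the libraries near 0, was -4.38 (SE 2.01, adjusted p = 0.285). With the luminal domains pooled with the luminal tumors it was -1.87 (adjusted p = 0.689), and with each library left out it ran from -6.50, without luminal tumor 3, to -2.78, without luminal tumor 2. Mesothelial markers summed to 14310.2, 65.8 and 6436 in the basal and to 11.5, 384 and 7.37 in the luminal tumors. Fibroblast markers summed to 66575, 44454 and 62708 in the basal and to 805, 212 and 17129.6 in the luminal tumors. Basal tumor 2, lowest of the basal tumors for Aldh1a2, was also lowest for both sums, and luminal tumor 3 had the highest Aldh1a2, the highest fibroblast sum and the lowest mesothelial sum of its group. Of the 3 mesothelial markers 1 was at 0 in each basal tumor and up to 2 in a luminal tumor. Wt1 averaged 2.37 in basal and 1.12 in luminal tumors, and Lrrn4 0 and 1.17, so the larger mesothelial sums are nearly all Msln. The part of these cells was not tested. The 5 genes whose profile over the 8 libraries of this table was nearest to that of Aldh1a2 were Bglap2, Col5a3, Ccdc57, Gpihbp1 and Rasl10a, with root mean square differences of centred log2 values from 1.30 to 1.40. Aldh1a2 was taken for this because its difference was the largest among the members.

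Aldh1a3 lay at 4688, 1899.7 and 11818 in basal tumors and at 2070.2, 1839 and 14468 in luminal tumors. Its highest value in each group was in library 3, and the groups ran through each other (-0.31, SE 0.86, adjusted p = 0.883, 95% interval -2.25 to 1.62).

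Rarg lay at 527, 1437 and 869 in basal tumors and at 1478, 1501 and 1598 in luminal tumors. All luminal tumors were above all basal tumors, by little in the case of basal tumor 2, and the 3 luminal tumors were nearly equal (0.81, SE 0.44, adjusted p = 0.366). Crabp2 ran from 88.9 to 18574 within the basal tumors, at 523, 88.9 and 18574, and lay at 748, 3975 and 7666 in the luminal tumors (1.57, SE 1.67, adjusted p = 0.667). Without basal tumor 2 its log2 fold change was -0.14. Stra6 lay at 649.7, 2104 and 343 in basal and at 249, 8.30 and 5411 in luminal tumors, where luminal tumors 2 and 3 were the lowest and the highest of all 6 (-1.74, SE 1.86, adjusted p = 0.667). It turned to 0.58 without luminal tumor 2. Rbp4 lay at 189.8, 0 and 737 in basal and at 2.28, 20.8 and 32.7 in luminal tumors (-1.96, SE 2.29, adjusted p = 0.7), and basal tumor 2 was the only 1 of the 6 listed at 0. The difference ran from -4.81 without basal tumor 2 to -0.044 without basal tumor 3.

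No difference was detected for either retinol dehydrogenase at this spread. Rdh10 lay at 1844, 1197 and 1361 in basal and at 1092, 1414 and 1527 in luminal tumors (-0.12, SE 0.51, adjusted p = 0.928, 95% interval -1.26 to 1.03). Rdh11 lay at 1190.5, 846 and 1337 in basal and at 153, 1049.8 and 1538 in luminal tumors. Luminal tumor 1 was far below the other 5 libraries and the rest overlapped (-0.81, SE 0.79, adjusted p = 0.635, 95% interval -2.60 to 0.97). Without luminal tumor 1 the difference was 0.20. Over the 8 libraries Rdh10 and Rarg had narrower ranges (1.88 and 2.31 on the log2 scale) than the median gene tested (2.95), and Aldh1a2, Rbp4 and Stra6 spanned 9.18 to 10.39.

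**Figure D3:**
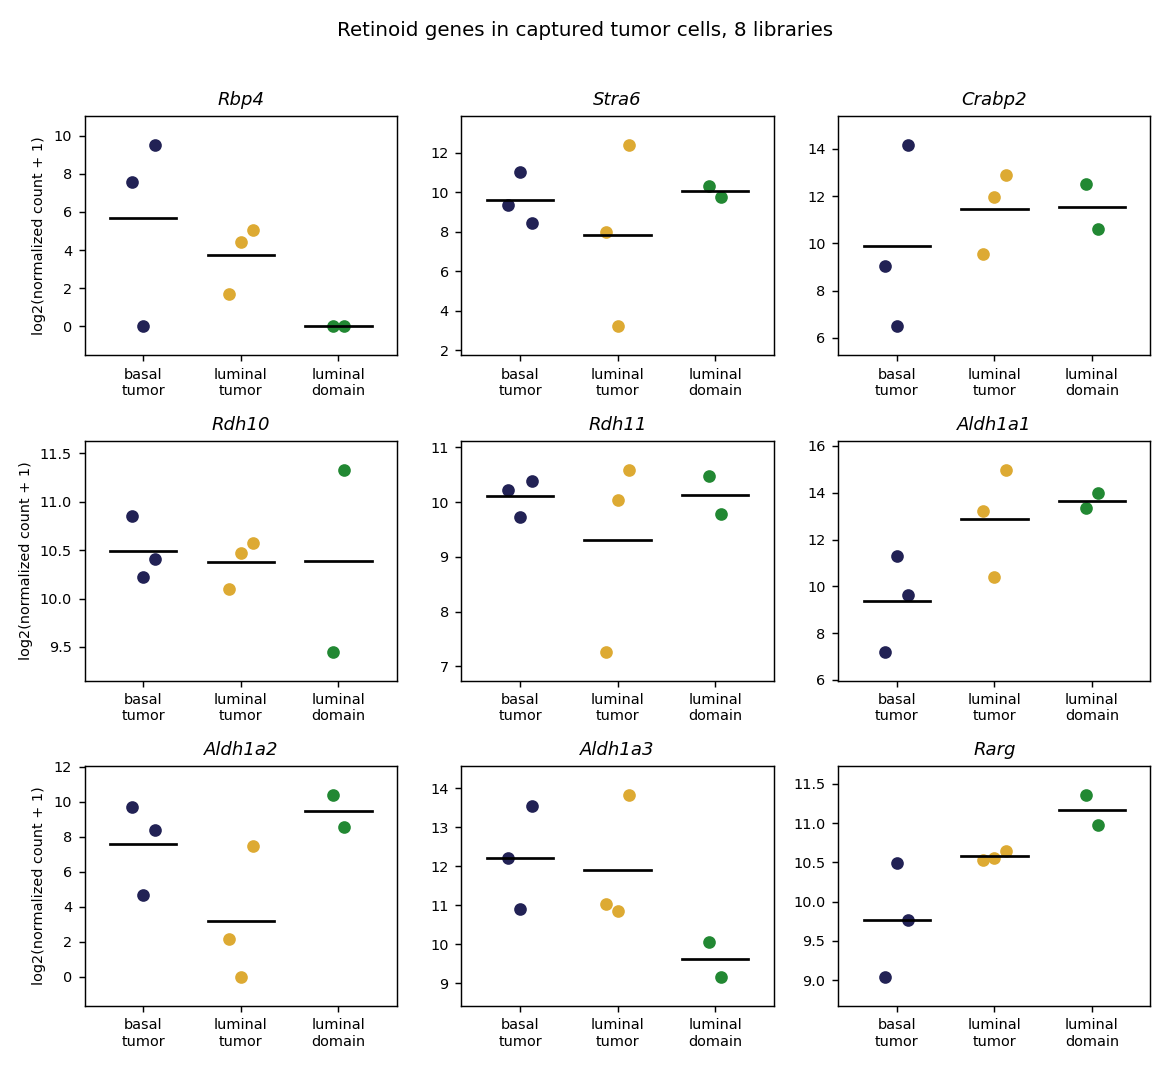
Values of the 9 members in 3 basal tumors, 3 luminal tumors and the 2 luminal domains that share their table, as log2(normalized count + 1), 1 point per library with a black line at the group mean. Rarg is the 1 member whose luminal tumors all lie above the basal tumors, while Aldh1a2, Rbp4 and Stra6 span over 9 log2 units.

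Of the pathway list 29 genes were tested in these tumors, and 1 was called higher (1.26% of all genes) and 1 lower (0.938%). Adh1, an alcohol dehydrogenase that oxidizes retinol, rose from 16.01, 597 and 10.6 in basal tumors to 11949, 54147 and 9950.2 in luminal tumors (8.57, SE 1.42, adjusted p = 0.0292). Rarres2, listed among the genes that respond to retinoic acid and known as a chemoattractant for leukocytes, fell from 799.9, 591 and 517 to 4.81, 8.22 and 1.74 (-6.89, SE 1.36, adjusted p = 0.0403). Neither pair of groups overlapped. The 2 luminal domains of the table held 612 and 23.2 of Rarres2. Adh1 was not called without basal tumor 1 (0.108), basal tumor 3 (0.0651), luminal tumor 1 (0.0993) or luminal tumor 2 (0.119). Rarres2 was not called without any 1 of the basal tumors or of luminal tumors 1 and 2, with adjusted p from 0.0854 to 0.142. Among the 11 other settings the call was lost in 2 for Adh1 and in 4 for Rarres2. Over the whole list 16 of the 29 genes were higher on average in luminal tumors, against 7071 of the 15357 genes tested. Superficial urothelial markers summed to 4300 to 20093 in the basal and to 147791 to 849719 in the luminal tumors, and leukocyte markers (Ptprc, Cd3e, Cd68, Adgre1, Cd79a) to 2593 to 7258 and to 418 to 1623, and their part in these calls was not tested.

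Luminal domains of mixed tumors were compared with the same 3 basal tumors in a table of their own, normalized apart from the one above. Aldh1a1 was the member that passed the test, about 20-fold higher in the luminal domains on the log2 scale. Of 14921 genes tested 2.53% were called (1.7% higher and 0.824% lower), and of 8 members tested 1 was. Groups did not overlap for 2 of the 8, Aldh1a1 and Rarg, against 26.8% of all genes tested, and both were higher in luminal domains, as were 14% of all genes, while 12.8% were lower. The members' median log2 fold change was 1.02, against 0.01 over all genes tested (0.0097). Since basal tumors enter both comparisons and 2 luminal domains also entered the fit above, these results are not independent of those of the luminal tumors.

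Aldh1a1 lay at 155, 2631 and 823 normalized counts in the basal tumors and at 11025, 17780 and 14289.6 in the luminal domains. Every luminal domain exceeded every basal tumor, and the domains were close together while the basal tumors were not. Luminal domains stood higher by 4.34 on the log2 scale (SE 0.88, 95% interval 2.30 to 6.38, adjusted p = 0.0488), a 20.2-fold difference. The call is a narrow one. It held without basal tumor 2 (5.30, adjusted p = 0.02) and was lost without basal tumor 1 (3.26, 0.0847), basal tumor 3 (4.46, 0.0997), luminal domain 1 (4.52, 0.154), luminal domain 2 (4.17, 0.184) or luminal domain 3 (4.33, 0.142), with the sign kept. Among the 10 other settings it held in 3, with the log2 fold change between 4.19 and 4.53 and adjusted p between 0.0349 and 0.217. Aldh1a7 lay at 11.6, 222 and 2493 in basal tumors and at 8496, 1960.1 and 4563 in luminal domains. Basal tumor 3 exceeded luminal domain 2, and the log2 fold change was 4.47 (SE 1.66, adjusted p = 0.186).

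Markers of some other cells moved with this comparison as well, and others did not. Superficial urothelial markers (Upk1a, Upk1b, Upk2, Upk3a, Krt20, Krt18) summed to 4524 to 20736 in the basal tumors and to 112678 to 488257 in the luminal domains, and none was at 0. Fibroblast markers summed to 45948 to 70263 and to 5011 to 31289, and smooth muscle markers (Acta2, Myh11, Cnn1, Des, Actg2) to 4929.5 to 45206 and to 1032 to 1622, with 2 or 3 of these 5 at 0 in each luminal domain. Endothelial markers (Pecam1, Cdh5, Kdr, Tek) summed to 1369 to 2478 in the basal tumors and to 1097 to 2280 in the luminal domains. Leukocyte markers summed to 2782 to 7435 and to 1970 to 2951, and both of these sums overlapped. What any of these cells contribute to the Aldh1a1 difference was not tested.

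Aldh1a3 went the other way. It lay at 4779.6, 1899 and 11915 in basal tumors and at 1107, 599.7 and 2205 in luminal domains, with only basal tumor 2 below the highest luminal domain (-2.07, SE 0.71, unadjusted p = 0.0198, adjusted p = 0.162). Aldh1a2 lay at 875, 24.9 and 351 in basal tumors and at 1441, 406 and 197 in luminal domains (1.29, SE 1.36, adjusted p = 0.638). The groups overlapped, the luminal domains were not near 0 as luminal tumors 1 and 2 had been, and without basal tumor 2 the difference was -0.19. Mesothelial sums were 15078, 68.0 and 6705 in the basal tumors and 91.0, 15410.3 and 748 in the luminal domains, so that luminal domain 1 had the highest Aldh1a2 and the lowest mesothelial sum of its group, and the highest fibroblast sum (31289). Of the other mesothelial markers Wt1 averaged 2.48 in the basal tumors and 1.94 in the luminal domains, and Lrrn4 averaged 0 in both. These mesothelial sums are therefore nearly all Msln and do not show by themselves that mesothelial cells were captured. The share of stromal cells in these values was not tested.

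Rarg lay at 565, 1511 and 922 in basal tumors and at 2856, 2225 and 2251 in luminal domains, without overlap (1.39, SE 0.42, unadjusted p = 0.0111, adjusted p = 0.127). Stra6 lay at 694, 2202 and 362 in basal tumors and at 1358, 963 and 2026 in luminal domains, within the range of the basal tumors (0.75, SE 0.67, adjusted p = 0.575). Crabp2 lay at 549, 91.5 and 19276 in basal tumors and at 6265, 1677 and 2546 in luminal domains, again inside that range (1.59, SE 1.67, adjusted p = 0.637). Without basal tumor 2 it was -0.12. Rdh10 lay at 1876, 1194 and 1369 and at 722, 2689 and 1316 (-0.09, SE 0.51, adjusted p = 0.94, 95% interval -1.27 to 1.09). Rdh11 lay at 1361, 948 and 1511 and at 1656, 1029 and 558 (-0.35, SE 0.48, adjusted p = 0.732, 95% interval -1.46 to 0.77). For both dehydrogenases the luminal domains held the highest and the lowest of the 6 values. Rbp4 was listed at 202, 0 and 776 in basal tumors and at 0 in all 3 luminal domains. It did not pass the filter of 10 normalized counts in 3 libraries and was not tested.

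**Figure D4:**
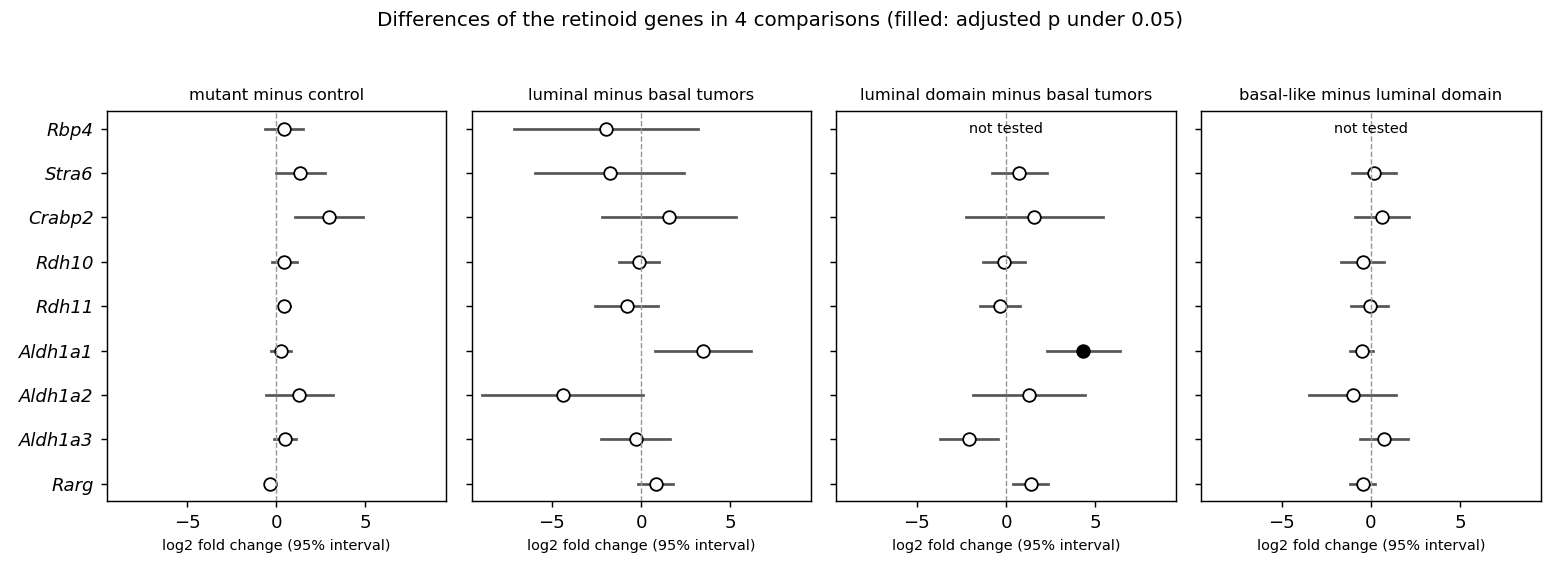
Log2 fold changes (points) of the members with 95% intervals (lines) in the 4 comparisons, on a common horizontal scale, with filled points for an adjusted p under 0.05. The 1 filled point is Aldh1a1 in luminal domains against basal tumors, at 4.34, and every member tested has a wider interval in both comparisons with basal tumors than at 4 days.

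Of the pathway list 26 genes were tested here, with 1 called higher and 1 lower. Adh1 rose from 17.1, 624 and 11.2 in basal tumors to 31048, 4599 and 21248 in luminal domains (8.13, SE 1.46, adjusted p = 0.0367), and the groups did not overlap. The call of Adh1 was kept without basal tumor 2 (0.00619) and lost without any 1 of the other 5 libraries, with adjusted p from 0.0796 to 0.147. Among the 10 other settings it was lost in 3. Over the whole list 17 of the 26 genes were higher on average, against 7526 of the 14921 genes tested.

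Basal-like and luminal domains of mixed tumors were set against each other to see whether the basal-like part has lost the retinoid genes of the luminal part. No member differed beyond the spread of its libraries in an unpaired test. The labels do not say whether a luminal and a basal-like domain came from the same tumor, and libraries of neighbouring numbers in the tables were not taken as pairs. If any are pairs, differences between tumors count as spread here. In the order of those numbers, Crabp2 was higher in each basal-like domain than in its neighbour, and Aldh1a2 and Aldh1a7 were lower. Every other member tested went both ways, and no paired test was run. The share of all genes with the same direction in each neighbour was not counted, so these directions cannot be read as a result about the members. Of 14874 genes tested 0% were called with limma, at an unadjusted p under 0.05 there were 757 genes and 0 of the 8 members tested, and 20 genes, no member among them, were called without a trend in the variance. The groups overlapped for all 8 members, where 10.8% of all genes tested had groups that did not (5.62% higher and 5.14% lower in basal-like domains). The median log2 fold change was -0.27 over the members and 0.01 (0.0093) over all genes tested. The luminal domains here are the libraries of the comparison with basal tumors, normalized anew.

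Aldh1a1 lay at 11132, 18184 and 14600.5 in the luminal domains and at 13747, 8769 and 8600.3 in the basal-like domains. Basal-like domain 1 fell among the luminal domains and the other 2 lay below them (-0.50, SE 0.28, 95% interval -1.15 to 0.14, adjusted p = 0.935). All 6 values of Aldh1a1 thus lay within 1.08 log2 units, a narrower range than that of the median gene tested (1.73). Aldh1a7 lay at 8585, 2006 and 4666 in luminal and at 5040.3, 1807 and 2817 in basal-like domains (-0.55, SE 0.56, adjusted p = 0.961). Aldh1a2 lay at 1457, 416 and 202 and at 758, 291 and 64.1 (-1.03, SE 1.05, adjusted p = 0.961). Aldh1a3 lay at 1156, 634 and 2329 and at 1007, 2489 and 3061 (0.72, SE 0.58, 95% interval -0.61 to 2.05, adjusted p = 0.949).

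Rarg lay at 3093, 2440.3 and 2467 in luminal and at 1981, 2618 and 1386 in basal-like domains, where only basal-like domain 2 reached the luminal values (-0.46, SE 0.30, 95% interval -1.15 to 0.24, adjusted p = 0.935). Crabp2 lay at 6253, 1695 and 2572 and at 7144, 1843 and 7641 (0.63, SE 0.65, adjusted p = 0.961), where basal-like domains 1 and 3 were above all luminal domains and basal-like domain 2 was below 2 of them. Stra6 lay at 1395, 1002 and 2106 and at 889.98, 1392 and 3469.6 (0.18, SE 0.53, adjusted p = 0.986). Rdh10 lay at 819.6, 3091 and 1512 and at 996, 1734 and 847 (-0.46, SE 0.52, adjusted p = 0.967), and Rdh11 at 1595, 1004 and 544 and at 775, 954 and 1000.1 (-0.08, SE 0.45, adjusted p = 0.991). The basal-like domains lay inside the luminal range for both dehydrogenases. Rbp4 was listed at 0 in all 3 luminal domains and at 197, 24.3 and 0 in the basal-like domains and was not tested. Of the pathway list 28 genes were tested and 0 were called, with 2 at an unadjusted p under 0.05. Over the whole list 19 of the 28 genes were lower on average in basal-like domains, against 7326 of the 14874 genes tested. Fibroblast markers summed to 5225 to 32313 in luminal and to 13859 to 104068 in basal-like domains, and superficial markers to 114854 to 490815 and to 33956 to 120581, and their part in these values was not tested.

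**Figure D5:**
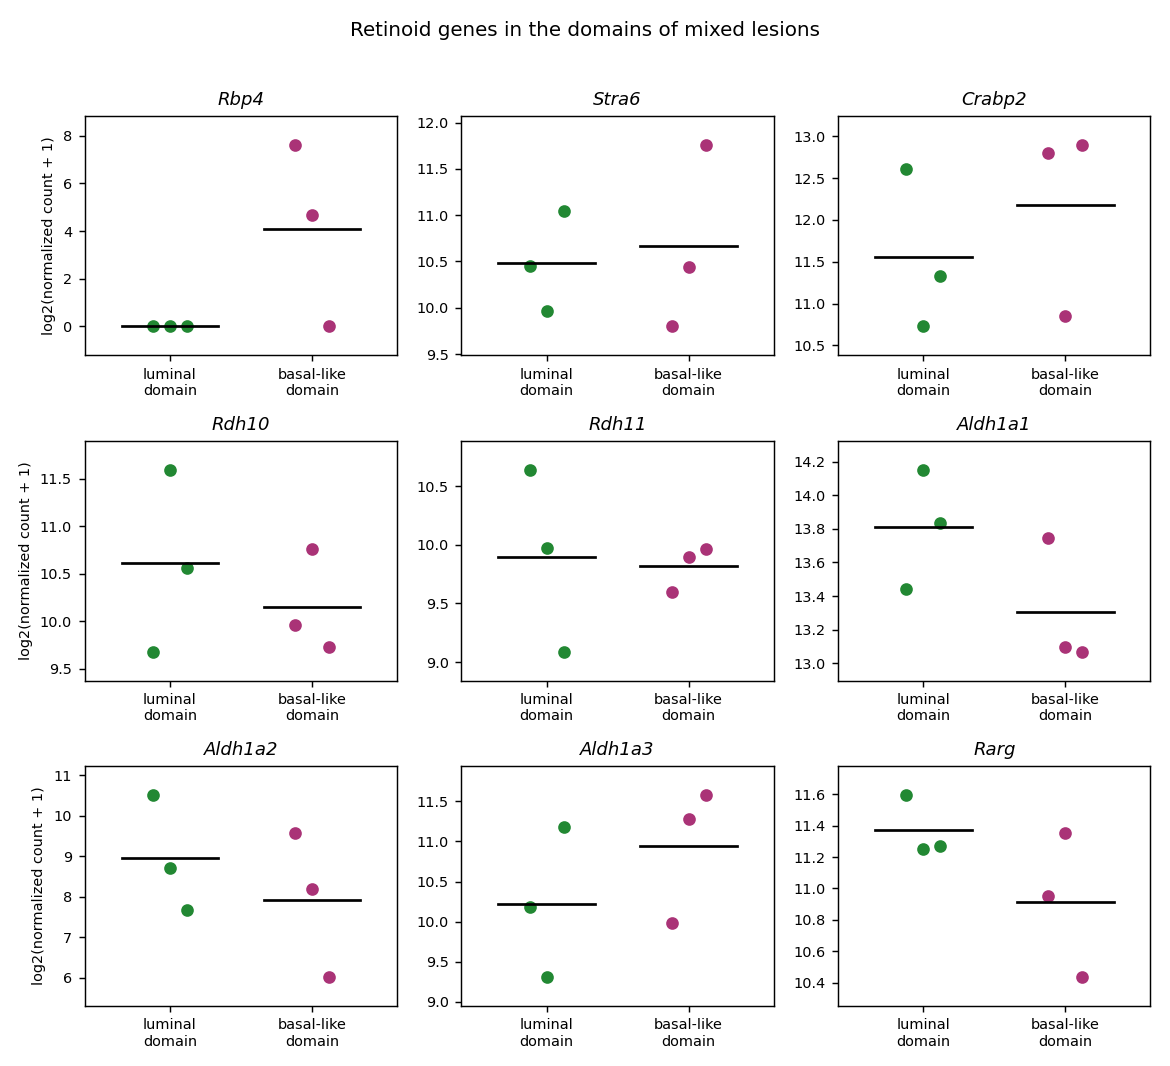
Values of the 9 members in the 3 luminal and 3 basal-like domains of mixed tumors, as log2(normalized count + 1), 1 point per library with a black line at the group mean. Groups overlap in every panel, the 6 values of Aldh1a1 lie within 1.08 log2 units, and Rbp4 is at 0 in the luminal domains.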

How the data were processed

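RNA of sorted or laser-captured cells was amplified with SMART-Seq v4 and made into libraries with Nextera XT, which does not keep strand. Per the labels and methods, the authors converted reads with bcl2fastq 2.20, estimated transcripts with kallisto 0.44.0, took gene sums through tximport, and scaled the libraries of a table with DESeq2 1.18, apart from other tables. The signal deposited for a gene is thus its normalized count. The processing notes name GRCm38 and GRCh38, and the transcript index is not given in the sources used here. The factors differ between genes, so whole reads could not be recovered and depth is unknown. The authors' own comparison columns (log2 fold changes, p-values) were not used. Of the 29 samples 21 were used. The 8 columns of untreated and BBN-treated wild-type mice were not used, because neither labels nor column names say which is which.

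Genes with at least 10 normalized counts in as many libraries as the smaller group has were tested with limma 3.58.1 (R 4.3.3, eBayes with a trend, two-sided) on log2(normalized count + 1). P-values were adjusted by Benjamini-Hochberg over all genes tested, with a threshold of 0.05. Nothing says whether libraries of a group are separate animals, so p-values measure the spread between these samples, which may be technical. Named are the 9 members, Aldh1a7 and each called gene of the pathway list, of which 1 is counted but not reported here. Members and lists were chosen with earlier results of these data known, and Rarb after its values were seen. Scripts were tested on simulated data. Alternatives were other pseudocounts (0.5, 5), filters (none, 50), spread models and scalings, other tables, other groupings of luminal libraries, the Y-linked score as a covariate at 4 days, control 1 alone against the mutants, and each library left out. Figures were drawn with matplotlib.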

Additional observations from a re-analysis of the deposited data

Results flagged for a closer look

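In groups of 4 or 5 libraries a value was taken as standing apart when its gap to the nearest other exceeded Dixon's 95% critical share of the group's range. The rule was applied to normalized counts and not to their log2 values. Of 34 such groups 4 had one. The rate of about 1 in 20 by chance holds for normally distributed values, which was not checked for these counts. Stra6 had 240.3 normalized counts in mutant 3 at 4 days, against 64.6 in the next mutant. Rdh11 had 985 in control 1, against 759 in the next control. Ttr had 67.7 in control 2, against 32.6 in the next control, and all 5 mutants were above it. Rarres2 had 5213 in mutant 3, against 1324 in the next mutant. Mutant 3 also had the highest fibroblast sum of the 9 libraries (217371).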

How the results depend on the processing

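Over 605 recalculations of the members' 34 tested differences, 569 kept their direction and their side of the threshold, 12 lost the call of Aldh1a1 in luminal domains and 24 changed sign. No member gained a call. The settings are those listed with the methods. The fit of control 1 alone against the mutants was chosen after seeing the data, and it and the fit with the Y-linked score rest on the same single control, so they are nearly 1 comparison and their low counts come with that single library. The cause of each change was not tested.

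Genes called at 4 days, 467 in the reported fit, numbered 269 without a trend, 1054 with array weights, 147 in the table of 3 against 3, 25 with the Y-linked score, 4 for control 1 against the mutants, and 129 to 596 with each library left out. For luminal against basal tumors, 338, the number was 52 without a filter, 142 without a trend, 513 with luminal libraries pooled, 142 with the luminal domains out of the fit, and 3 to 813 with each library left out, 3 without luminal tumor 1 or 2 and 813 without luminal tumor 3. For luminal domains against basal tumors, 377, it was 144 without a filter, 107 without a trend, 53 in the table of 8 libraries, and 0 to 467 with each library left out, 0 without luminal domain 1 or 2. Between domains 20 were called without a trend, and 0 in all fits with a library left out. Quantile scaling at 4 days gave 270 higher and 287 lower, against 290 and 177.

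Rbp4 (-0.40, -0.29) and Rdh10 (-0.095, -0.013) at 4 days changed sign with the Y-linked score and for control 1 alone. Rdh11 did so in luminal domains in the table of 8 libraries (0.018) and between domains with array weights (0.040). With each library left out, log2 fold changes in luminal against basal tumors ran from -4.01 to 0.58 for Stra6, -0.14 to 3.71 for Crabp2, -0.25 to 0.060 for Rdh10, -1.46 to 0.20 for Rdh11 and -1.27 to 0.35 for Aldh1a3. In luminal domains against basal tumors they ran from -0.12 to 3.73 for Crabp2, -0.57 to 0.37 for Rdh10, -0.72 to 0.063 for Rdh11 and -0.19 to 2.35 for Aldh1a2. Between domains they ran from -0.36 to 0.62 for Stra6, -0.93 to 0.028 for Rdh10 and -0.48 to 0.29 for Rdh11. No paired analysis was possible because the table columns carry no replicate numbers, so that no column could be tied to the numbered samples of the labels, and neighbouring library numbers of luminal and basal-like domains are not stated to be pairs. Intervals in the tumor tables are wide at 3 libraries a group, and read depth is unknown.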
